A study of Mus musculus with 12 samples.

Results

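Chromatin accessibility was compared between Th1 cells that lack a super-enhancer of Ets1 and wild-type Th1 cells, with 4 of the 12 ATAC-seq libraries of a mouse CD4+ T cell series. The knockout (KO) group held 2 biological replicates of the strain C57BL/6J-Ets1-SE-KO, and the wild-type (WT) group held 2 of C57BL/6J. Naive CD4+ T cells were isolated from the spleen and cultured for 6 days on plate-bound anti-CD3 with IL-12 at 10 ng/mL, IL-2 at 1 ng/mL and soluble anti-CD28. Both groups received this treatment, and no age is given in the labels. The labels state neither the position of the deletion nor whether replicates came from separate animals or cultures. The spread between replicates may therefore be partly technical. The other 8 libraries, naive and Th2 cells of the same strains with 2 libraries per group, serve here for comparison only.

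ATAC-seq uses the transposase Tn5 to cut accessible DNA, so that enhancers and promoters in use appear as peaks of cut sites. Th1 cells are the helper T cells that secrete interferon-gamma against intracellular microbes. IL-12 acts through STAT4, and T cell receptor signals act with it to induce T-bet, encoded by Tbx21, which opens and activates Ifng. Ets1 is a transcription factor of lymphocytes that binds GGAA cores and is known as a cofactor of T-bet in Th1 gene expression. A super-enhancer is a cluster of strong enhancers that serves 1 or a few genes.

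Each library was available as a list of called peaks with a score per peak, so read depth is unknown and a region without a peak is only one where nothing was called. The lists held 46006 and 44372 peaks in KO cells, against 44223 and 34746 in WT cells, on chromosomes 1 to 19 and X. WT replicate 2 thus had the shortest list, and every count below depends on that difference in length. Overlapping peaks of the 4 lists were merged into 61954 regions, out of 110642 for all 12 libraries. Of these, 25907 regions (41.8%) had a peak in all 4 libraries, and 18000 (29.1%) had a peak in 1 library alone. WT replicate 2 alone lacked a peak in 4590 regions, whereas KO replicates 1 and 2 alone lacked one in 1619 and 1223 regions and WT replicate 1 in 1020. All 4 libraries had peaks at the Y-linked genes Ddx3y, Eif2s3y, Kdm5d and Uty and none at Xist.

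The labelled cell type was checked first. The T cell genes Cd3e, Cd3d, Cd3g, Cd4, Cd5, Bcl11b, Lck and Zap70 had at least 1 open region in each of the 4 libraries, as did Ifng, Tbx21, Cxcr3, Il12rb2 and Il18rap. Regions were assigned to a gene where they touch its body or the 20 kb on either side. The Th2 genes Gata3, Il4, Il5 and Il13 had open regions in every Th1 library as well. The promoter of Ifng was open in all 4 Th1 and all 4 naive libraries and in none of the 4 Th2 libraries, those of knockout Th2 cells included. Among 9 B cell genes, 35 and 33 regions were open in KO cells, against 36 and 28 in WT cells, and Ms4a1, which encodes CD20, had none in any library. Among 10 myeloid genes, 29 and 23 were open in KO cells, against 22 and 19 in WT cells, with Lyz2 and Mpo at 0 in all 4 libraries. The 9 red cell genes had 10 and 11 open regions in KO cells, against 8 and 10 in WT cells. The part of other cell types in the differences below was not tested.

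The deleted super-enhancer belongs to Ets1, and beyond the end of Ets1 on chromosome 9 lay a block of WT peaks with no counterpart in KO cells. Ets1 spans chr9:32636241-32757820 (GRCm38). Between 2 neighbouring KO peaks, over 43.3 kb at chr9:32897838-32941124, the 2 KO libraries had 0 and 0 peaks, against 7 and 6 peaks in WT cells. This gap begins 140.0 kb beyond the end of Ets1. No other of the 6889 stretches between neighbouring KO peaks in the genome that hold a WT peak held as many. With all lists cut to the length of the shortest the stretch held 12 WT peaks, and with q-values of at most 0.01 it held 9. In each of these settings 1 other stretch held more. Without WT replicate 1 or 2 the stretch beyond Ets1 held 6 or 7, and without WT replicate 2 another stretch held as many.

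The stretch held 7 regions, of which 6 had a peak in both WT libraries and in neither KO library. Such regions are called lost here, and regions with a peak in both KO and neither WT libraries are called gained. The highest-ranked of the 6 was chr9:32915558-32916112, which had no peak in KO cells and stood at percentiles 93.0 and 71.1 of the peak scores of the WT lists. The next, chr9:32910458-32910997, stood at percentiles 63.2 and 8.89 in WT cells and had no peak in KO cells. The regions at chr9:32924967-32925472, chr9:32926086-32926705, chr9:32928427-32928959 and chr9:32940283-32940728 ranked between percentiles 4.89 and 60.0 in WT cells. The lost regions thus ranged from strong to barely called peaks. The lncRNA gene Gm27162 overlaps the stretch, and of its 9 regions 2 and 2 were open in KO cells, against 9 and 8 in WT cells. With equal lists 6 regions of Gm27162 were lost, and with a stricter q-value 3 were.

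The border regions of the stretch were open in both genotypes. The region chr9:32941125-32941845, directly beyond it, ranked at percentiles 85.9 and 92.0 in KO cells and 95.3 and 92.1 in WT cells. The region chr9:32897138-32897867, on the side of Ets1, ranked at percentiles 1.28 and 64.5 in KO cells and 33.8 and 29.9 in WT cells. In the other cell types, the stretch held 1 and 0 peaks in Th2 KO cells, against 8 and 6 in Th2 WT cells, and 3 and 3 in naive KO cells, against 9 and 9 in naive WT cells. Of the 6 regions lost in Th1 cells, chr9:32928427-32928959 and chr9:32940283-32940728 had peaks in both naive KO libraries, and the second also had one in Th2 KO replicate 1.

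**Figure D1:**
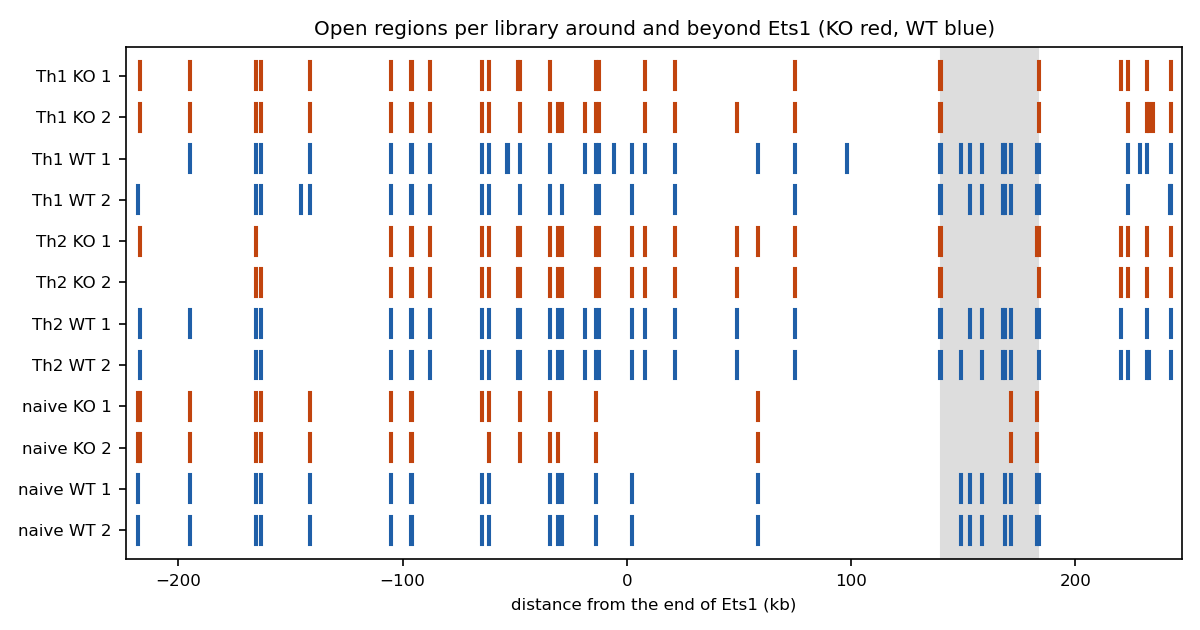
Open regions of the 4 Th1, 4 Th2 and 4 naive libraries by distance from the end of Ets1 in kb (KO red, WT blue, 1 row per library, bars widened to be visible). In the grey stretch the Th1 KO rows hold no region, whereas the Th1 WT rows hold 7 and 6 peaks, and regions at both borders are open in all 4 Th1 libraries.

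Most regions of Ets1 itself were open in both genotypes. Of 18 regions at the gene, 12 and 14 were open in KO cells, against 15 and 12 in WT cells, and 10 were open in all 4 libraries. The single lost region, chr9:32759678-32759988, lies 2.01 kb beyond the end of the gene and was open in all 4 Th2 libraries and both naive WT libraries. No region of Ets1 was gained. For the regions in all 4 lists, the peak score was ranked within each library, among those regions only, as a percentile. The region chr9:32722954-32723407 within Ets1 stood at percentiles 88.9 and 66.2 in KO cells and 51.4 and 17.1 in WT cells. The groups did not overlap there, but the difference did not pass the rank test across all regions, in which no region was called.

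Fli1, the neighbouring ETS factor gene on the other side, had 22 regions, with 15 and 15 open in KO cells, against 14 and 11 in WT cells. It had 1 lost and 1 gained region and 8 regions open in all 4 libraries. The region chr9:32486708-32487179 within Fli1 stood at percentiles 72.0 and 53.7 in KO cells and 26.4 and 7.3 in WT cells. The region chr9:32507385-32507857 within Fli1 differed the other way, with percentiles 3.9 and 0.7 in KO cells and 39.3 and 35.0 in WT cells. The mean rank over the 8 regions of Fli1, on a normal-score scale (SD units of a normal distribution), was -0.32 and -0.56 in KO cells and -0.64 and -1.37 in WT cells. The difference of 0.57 ± 0.30 (KO minus WT, SE) gave a limma adjusted p of 0.730 over all genes tested.

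Other protein-coding genes within 1 Mb of Ets1 had few regions. The potassium channel gene Kcnj1 had 1 region, open in neither KO and both WT libraries, and Kcnj5 had none. That region, chr9:32405333-32405666, is also the lost region counted at Fli1. It had a peak in Th2 KO replicate 1 and in naive KO replicate 2. The homeobox gene Barx2 had 1 gained region of 2. The gene Arhgap32 had 1 lost and 2 gained of 11 regions. Outside the stretch, 3 of 44 regions within 1 Mb of its middle that were open in both WT libraries were lost (6.82%), and 5 of 47 open in both KO libraries were gained (10.6%). Over all of chromosome 9 outside the stretch, that window included, these shares were 3.99% and 8.42%.

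Across the genome, 3061 of the 34578 regions open in both KO libraries were gained (8.85%), and 1223 of the 29972 open in both WT libraries were lost (4.08%). Which of the counts was larger depended on the list lengths. With each list cut to its 34746 highest peaks, 1715 regions were gained and 1804 lost. Of the 3061 gained regions 1080 were also called with equal lists, 35.3% of the first list and 63.0% of the second. Of the 1223 lost regions 728 were, 59.5% and 40.4%. With q-values of at most 0.01 there were 2283 gained and 1214 lost. Leaving out a library enlarges the counts, since fewer libraries must then share or lack a peak. The counts were 8055 gained and 2463 lost without KO replicate 1, 9730 and 2876 without KO replicate 2, 7671 and 3040 without WT replicate 1, and 4090 and 6115 without WT replicate 2. An exact permutation test of 2 against 2 libraries cannot give a p below 0.333, so no p was computed per region.

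**Figure D2:**
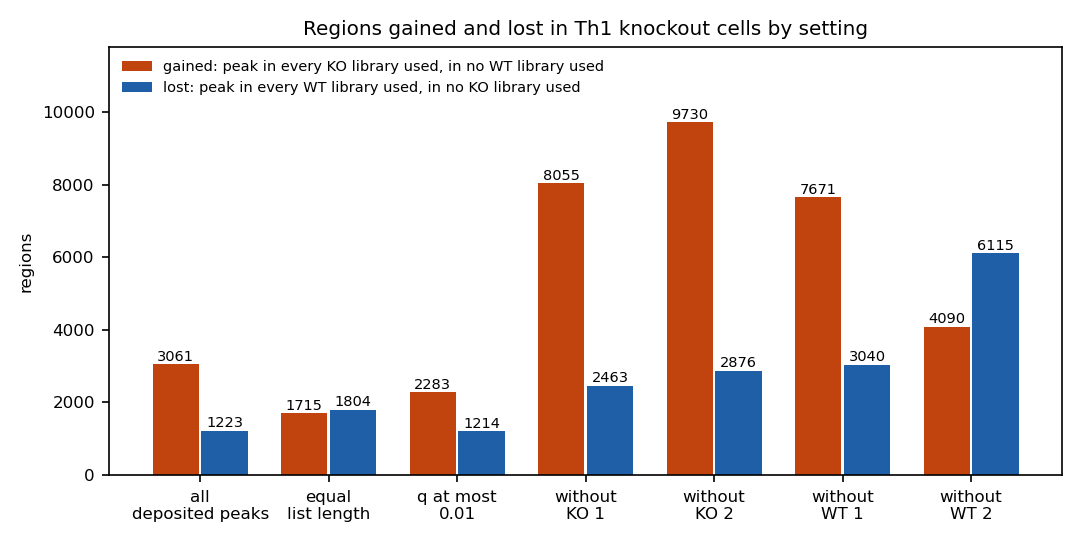
Number of regions gained (red, left) and lost (blue, right) in Th1 KO cells with all deposited peaks, with equal list lengths, with a stricter q-value and without each library in turn. Gained regions outnumber lost ones with all peaks (3061 and 1223), with a stricter q-value (2283 and 1214) and without KO 1, KO 2 or WT 1, but not with equal lists (1715 and 1804) or without WT 2, where counts are larger by construction.

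Gained and lost regions were small, weak and mostly away from promoters. Their median widths were 384 and 369 bp, against 694 bp for regions open in all 4 libraries. The gained ones had a median percentile of 28.6 and 25.5 within the KO lists, and lost regions one of 26.1 and 22.5 within the WT lists. Regions open in all 4 libraries had medians of 69.4 and 69.2 in KO lists and 69.2 and 61.0 in WT lists. A promoter window overlapped 114 gained (3.72%) and 31 lost regions (2.53%), against 7325 (28.3%) of those open in all 4 libraries. A promoter window covers 250 bp before to 50 bp after a start of a protein-coding gene. The weakest peaks of a list are those that a change of depth or threshold removes first, and the part of this in the calls was not tested.

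The core genes of the Th1 program had open chromatin in KO as in WT cells. At Ifng, 4 and 4 regions were open in KO cells, against 5 and 4 in WT cells. The promoter region of Ifng, chr10:118440619-118441327, stood at percentiles 39.1 and 40.1 in KO cells and 48.9 and 38.9 in WT cells, so the groups overlapped. A region beyond Ifng, chr10:118458603-118459186, stood at percentiles 19.5 and 61.8 in KO cells and 62.3 and 67.0 in WT cells, a difference of -0.66 ± 0.47 normal-score units (KO minus WT, SE) that was not called. At Tbx21, 5 and 4 regions were open in KO cells, against 5 and 3 in WT cells. The promoter region of Tbx21, chr11:97115115-97115574, had a weak peak at percentiles 13.8 and 11.4 of the KO lists and 11.8 of the list of WT replicate 1, and none in WT replicate 2. None of the regions of Ifng and Tbx21 was lost or gained with all peaks, but 1 region of Ifng was lost with all lists cut to equal length and 1 with a stricter q-value.

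The receptor genes of IL-12 and IL-18 were open in both genotypes. Il12rb2, the IL-12 receptor chain induced in Th1 cells, had 13 and 16 open regions in KO cells, against 11 and 12 in WT cells. Its strongest region, chr6:67347800-67348683, stood at percentiles 99.7 and 98.7 in KO cells and 99.6 and 99.5 in WT cells. Both groups thus sat at the top of the scale. The single gained region of Il12rb2, chr6:67335887-67336191, was also open in all 4 Th2 libraries and in no naive library. Its promoter region, chr6:67375836-67376437, stood at percentiles 80.9 and 60.0 in KO cells and 61.0 and 51.4 in WT cells. Il18rap, the accessory chain of the IL-18 receptor, had 5 and 6 open regions in KO cells, against 3 and 3 in WT cells. Its 2 gained regions, chr1:40524055-40524517 and chr1:40542778-40543193, had no peak in any of the 8 Th2 and naive libraries. With all lists cut to equal length, 1 region of Il18rap was gained. Il18r1, the other chain of that receptor, had 5 and 8 open regions in KO cells, against 7 and 5 in WT cells. Il12rb1, the shared chain of the IL-12 and IL-23 receptors, had 6 and 7 in KO cells, against 6 and 5 in WT cells, with 1 lost. Stat4, the signal transducer of IL-12, had 17 and 17 open regions in KO cells, against 15 and 13 in WT cells, with 1 gained. Cxcr3, a chemokine receptor of Th1 cells, had 2 and 2 open regions in KO cells, against 1 and 2 in WT cells.

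The sequences of promoter windows show what DNA lies under these peaks (RefSeq, GRCm38.p6, read along the gene's strand, capitals mark the ETS motif GGAAGT or its reverse complement ACTTCC). The first 4 belong to Th1 genes described above, and the last 2 are a promoter that was gained and one that was lost, chosen after their values were seen.
Ifng promoter (chr10:118440796-118441095, plus strand): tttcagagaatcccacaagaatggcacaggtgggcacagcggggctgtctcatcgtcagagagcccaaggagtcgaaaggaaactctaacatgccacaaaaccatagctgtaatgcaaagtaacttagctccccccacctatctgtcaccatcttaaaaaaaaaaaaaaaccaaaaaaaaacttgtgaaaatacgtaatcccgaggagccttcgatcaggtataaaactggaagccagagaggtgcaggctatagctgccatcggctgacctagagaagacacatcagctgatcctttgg
Tbx21 promoter (chr11:97115282-97115581, minus strand): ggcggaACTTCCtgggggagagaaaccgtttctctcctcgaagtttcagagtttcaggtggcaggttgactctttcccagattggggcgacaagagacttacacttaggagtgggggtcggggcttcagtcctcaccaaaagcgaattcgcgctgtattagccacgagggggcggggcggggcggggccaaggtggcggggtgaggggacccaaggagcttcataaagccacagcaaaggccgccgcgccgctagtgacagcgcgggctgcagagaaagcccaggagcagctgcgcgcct
Il12rb2 promoter (chr6:67376139-67376438, minus strand): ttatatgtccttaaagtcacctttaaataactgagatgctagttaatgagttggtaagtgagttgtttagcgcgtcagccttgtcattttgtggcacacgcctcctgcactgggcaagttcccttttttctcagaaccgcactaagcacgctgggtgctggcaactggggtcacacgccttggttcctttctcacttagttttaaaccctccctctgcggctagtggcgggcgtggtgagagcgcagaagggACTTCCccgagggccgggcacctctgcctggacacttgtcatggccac
Il18rap promoter (chr1:40515112-40515411, plus strand): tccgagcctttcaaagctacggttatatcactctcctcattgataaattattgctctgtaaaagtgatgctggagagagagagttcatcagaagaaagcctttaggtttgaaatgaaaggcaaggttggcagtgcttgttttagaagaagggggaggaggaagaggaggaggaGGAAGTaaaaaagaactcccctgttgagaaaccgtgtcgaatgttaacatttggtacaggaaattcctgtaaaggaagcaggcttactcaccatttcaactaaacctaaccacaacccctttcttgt
Tnf promoter (chr17:35201958-35202257, minus strand): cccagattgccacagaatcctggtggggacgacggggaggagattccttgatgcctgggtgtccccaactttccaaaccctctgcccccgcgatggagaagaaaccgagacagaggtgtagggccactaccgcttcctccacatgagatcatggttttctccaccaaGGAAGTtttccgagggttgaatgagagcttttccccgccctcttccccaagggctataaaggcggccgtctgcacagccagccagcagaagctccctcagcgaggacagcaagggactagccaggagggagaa
Gcnt1 promoter (chr19:17356618-17356917, minus strand): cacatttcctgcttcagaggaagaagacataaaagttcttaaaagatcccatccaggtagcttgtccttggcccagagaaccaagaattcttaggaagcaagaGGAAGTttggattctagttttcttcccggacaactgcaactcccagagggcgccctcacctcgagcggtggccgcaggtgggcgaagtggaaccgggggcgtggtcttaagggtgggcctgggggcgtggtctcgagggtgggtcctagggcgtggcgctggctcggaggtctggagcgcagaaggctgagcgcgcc

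The ETS motif GGAAGT, of 6 letters and searched on both strands, was present once in each of these windows except that of Ifng, which held no match. The shorter core GGAA was not searched, and it does occur in the Ifng window. The windows of Tnf and Gcnt1 carry the gained and the lost call. Tnf encodes tumour necrosis factor, and its promoter region chr17:35201783-35202197 stood at percentiles 23.2 and 18.9 of the KO lists and had no peak in WT cells. It also had a peak in both Th2 KO libraries and in neither Th2 WT library. With equal lists no region of Tnf was gained. Gcnt1 encodes a glycosyltransferase that builds selectin ligands on activated T cells, and the region at 1 of its 3 windows, chr19:17356297-17356841, had no peak in KO cells and stood at percentiles 32.3 and 25.7 of the WT lists. It had no peak in any Th2 library or in naive WT cells, and a peak in both naive KO libraries.

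Over all 21020 promoter windows of protein-coding genes, 25.0% held GGAAGT on either strand, 3.68% held the T-box core GGTGTGA and 4.73% held the RUNX core TGTGGTT. No motif of these 3 contains another. GGAAGT was found in 19 of 120 windows under a gained region (15.8%), in 8 of 33 under a lost region (24.2%) and in 2801 of 9124 under a region open in all 4 libraries (30.7%). A match describes these letters only. Windows under gained and lost regions were few, and the differences in share were not tested.

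**Figure D3:**
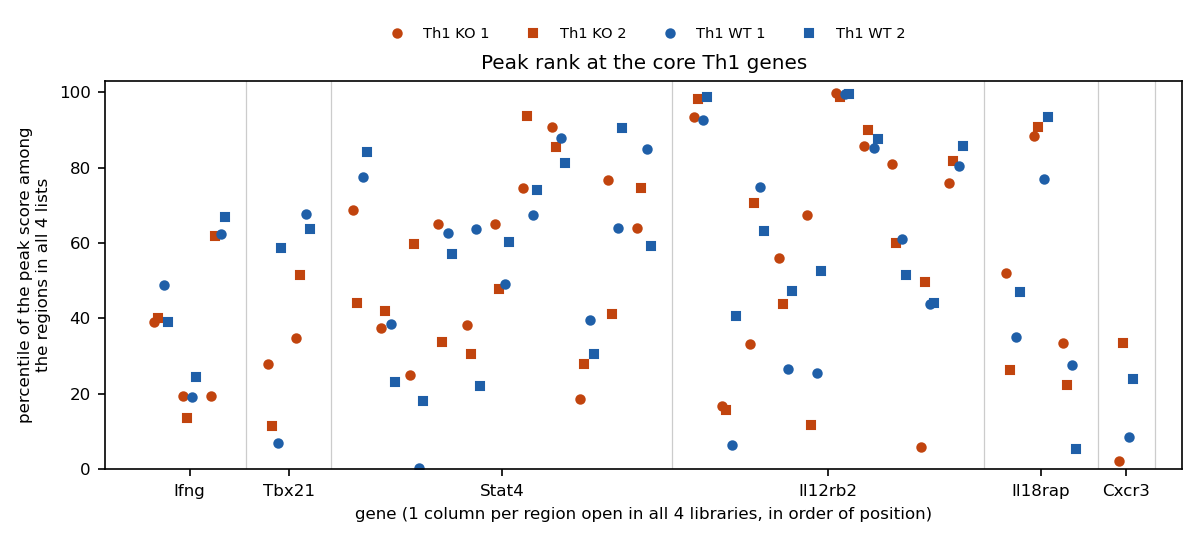
Percentile of the peak score at each region open in all 4 Th1 libraries, for 6 core Th1 genes (KO red, WT blue, circles replicate 1, squares replicate 2). KO and WT points overlap at most regions, and the strongest region of Il12rb2 stands between 98.7 and 99.7 in all 4 libraries.

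The lists of Th1 genes rest on few called regions each, and their shares moved with the width of the flank (0 of 42 regions of the transcription factor genes were lost with 5 kb). Of 56 regions of 12 Th1 transcription factor genes open in both KO libraries 2 were gained (3.57%), in Stat4 and Runx3, and of 55 open in both WT libraries 3 were lost (5.45%). The lost ones were 2 regions at Zeb2, which encodes a zinc finger repressor, and 1 at Irf1. Zeb2 had 6 and 8 open regions in KO cells, against 11 and 8 in WT cells. With equal lists Zeb2 had 1 lost region, Stat4 had 0 gained, Runx3 had 1 gained and 1 lost, and Irf1 had 1 lost. Of the regions of 13 Th1 cytokine and effector genes 2 of 32 were gained (6.25%), the Tnf promoter and a region at Xcl1, and 2 of 38 were lost (5.26%), at Fasl and Il10. With equal lists Tnf and Xcl1 had 0 gained regions and Fasl had 0 lost. The receptor list had 3 of 51 gained (5.88%) and 2 of 46 lost (4.35%), the lost ones at Il12rb1 and Ifnar1, of which Ifnar1 had 0 lost with equal lists. Over all regions 8.85% were gained and 4.08% lost, and no share of these 3 lists rests on more than 3 regions.

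Chemokine receptor and homing genes had 1 of 45 regions gained (2.22%), at Ccr7, and 1 of 43 lost (2.33%), at S1pr1, the receptor that guides exit from lymph nodes. With equal lists neither gene had such a call. Over the 4 regions of Cxcr4, the receptor for CXCL12, the mean rank was 0.00 and 0.28 in KO cells and 1.23 and 0.56 in WT cells. That difference of -0.75 ± 0.24 normal-score units (KO minus WT, SE) had a limma adjusted p of 0.618 over all genes and was not called.

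Genes of the IL-2 system had 5 of 48 regions gained (10.4%) and 0 of 37 lost. Of the gained regions 2 lay near Socs3, a feedback inhibitor of cytokine signals, which had 5 and 6 open regions in KO cells, against 3 and 3 in WT cells. The others were at Jak3, Socs1 and Stat5b. With equal lists Socs3 and Jak3 had 1 gained region each, Socs1 had 0, and Stat5b had 0 gained and 1 lost. Il2ra, the alpha chain of the IL-2 receptor, had no region called, and its mean rank over 7 regions was -0.31 and -0.10 in KO cells and -0.84 and -0.74 in WT cells (limma adjusted p 0.705). Its groups did not overlap, but the difference was not called.

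Genes of naive and memory T cells had 8 of 106 regions gained (7.55%) and 3 of 102 lost (2.94%). Foxp1, a factor of T cell quiescence, had 38 and 44 open regions in KO cells, against 35 and 29 in WT cells, with 4 gained and 0 lost, but 2 gained and 2 lost with equal lists. Bach2, a repressor that restrains effector differentiation, had 35 and 35 open regions in KO cells, against 36 and 30 in WT cells, with 2 gained and 0 lost, but 0 gained and 2 lost with equal lists. Satb1, a chromatin organiser, had 8 and 8 open regions in KO cells, against 9 and 10 in WT cells, with 2 lost, and 3 with equal lists.

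T cell identity and receptor signalling genes had 4 of 92 regions gained (4.35%) and 5 of 90 lost (5.56%), of which 2 were at Prkcq, the kinase of T cell activation. ETS family genes had 3 of 84 gained (3.57%) and 4 of 82 lost (4.88%). AP-1, NFAT and Nr4a genes had 5 of 65 gained (7.69%) and 2 of 61 lost (3.28%), and 3 of the gained ones lay in Nfatc2, which encodes a factor of calcium signalling, where 1 was gained with equal lists. Housekeeping genes, which serve as a check of these shares, had 4 of 36 gained (11.1%) and 0 of 31 lost. Genes of B cells had 1 of 24 gained (4.17%) and 2 of 27 lost (7.41%). CD8 and NK genes had 3 of 24 gained (12.5%) and 2 of 23 lost (8.70%).

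**Figure D4:**
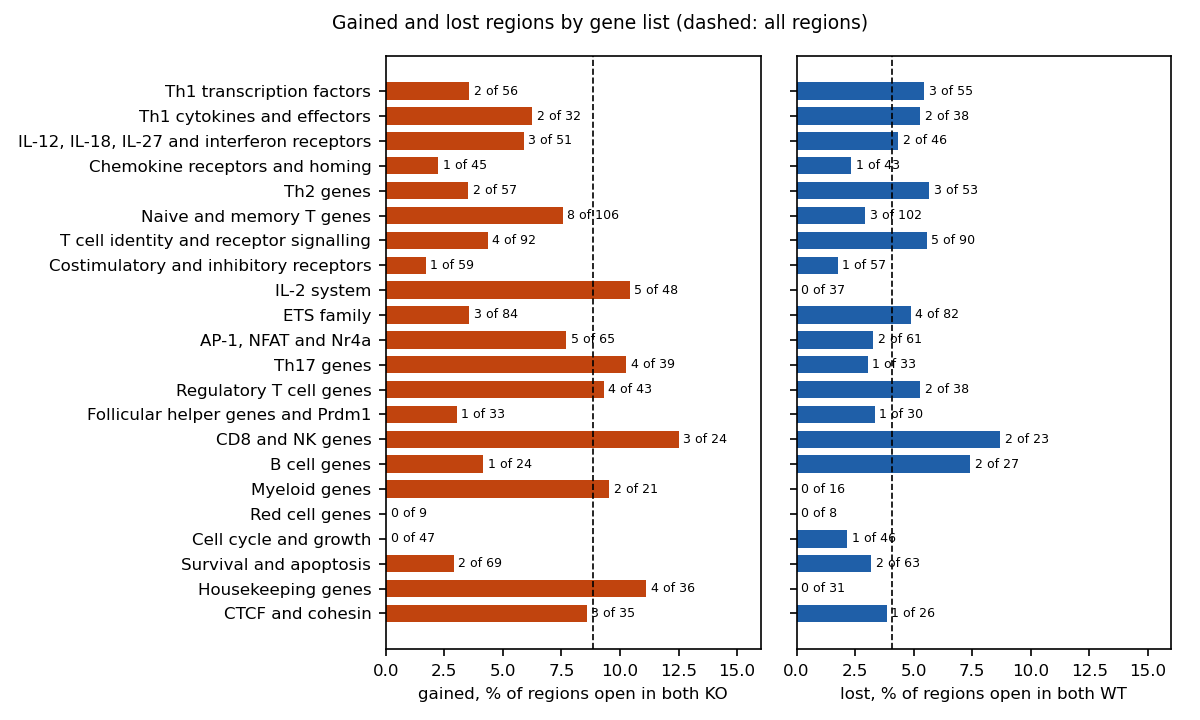
Gained regions as a percentage of those open in both KO libraries (left) and lost regions as a percentage of those open in both WT libraries (right) for 22 gene lists, with counts beside the bars. The dashed lines mark the shares over all regions, 8.85% gained and 4.08% lost.

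Among single genes, 2807 of 16914 protein-coding genes with a region had a gained one (16.6%) and 1328 a lost one (7.85%). Most gained regions were at Pcca, which encodes a subunit of propionyl-CoA carboxylase, with 7. Pcca had 27 and 28 open regions in KO cells, against 25 and 18 in WT cells, and 2 gained with equal lists. Cask, a scaffold kinase gene on the X chromosome, had 14 and 10 open regions in KO cells, against 4 and 4 in WT cells, with 6 gained and 2 with equal lists. Vav3, a guanine nucleotide exchange factor, had 16 and 16 in KO cells, against 13 and 7 in WT cells, with 6 gained and 1 with equal lists. Both WT libraries had fewer open regions than both KO libraries at each of these genes. The genes were chosen for their gained regions, so this lack of overlap follows in part from the choice. Arhgap6, Dok6, Celf2 and Maml3 had 4 or 5 gained regions both with all peaks and with equal lists.

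Most lost regions were at Ptk2b, which encodes the adhesion kinase Pyk2, with 4. Ptk2b had 13 and 16 open regions in KO cells, against 19 and 15 in WT cells, and 2 lost with equal lists. Map3k5, a stress kinase gene, had 10 and 9 open regions in KO cells, against 13 and 13 in WT cells. It had 3 lost and 1 gained, and 3 lost with equal lists. Ssbp3, which encodes a single-stranded DNA binding protein, had 4 and 5 in KO cells, against 8 and 8 in WT cells, with 3 lost, and 3 with equal lists. The other protein-coding genes with 3 lost regions were Nfia, Med12l, Pard3 and Kcnj8. With equal lists Nfia had 3 lost, Med12l and Pard3 had 2 each, and Kcnj8 had 1. Ssbp3 overlaps in part the stretch with the third-most WT peaks between KO peaks, chr4:106958442-107066425, which held 0 and 0 peaks in Th1 KO cells and 3 and 3 in Th1 WT cells. That stretch was not empty in Th2 KO cells, with 4 and 3 peaks, against 3 and 3 in Th2 WT cells.

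The stretch with the second-most WT peaks lies in the immunoglobulin heavy chain locus, chr12:115692174-116027917, over 335.7 kb that hold 19 annotated V segments. It held 0 and 0 peaks in Th1 KO cells, against 7 and 4 in Th1 WT cells. Naive cells had 11 and 10 peaks there in KO, against 18 and 20 in WT, and Th2 cells 4 and 1 in KO, against 0 and 1 in WT. This stretch was singled out after its values were seen, and the part of B cells, whose gene counts are given above, was not tested.

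The X chromosome took a larger share of peaks in KO cells, 2.48% and 2.47%, against 2.20% and 2.17% in WT cells. With equal lists the shares were 2.30% and 2.45% in KO cells, against 2.24% and 2.17% in WT cells, so the groups stayed apart by a small margin. On X, 114 of 841 regions were gained (13.6%) and 23 of 645 were lost (3.57%), against 8.85% gained and 4.08% lost over all regions. The next-highest gained share was 10.9%, on chromosome 12. With equal lists 57 regions on X were gained and 47 lost, of 1715 gained and 1804 lost in all.

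Peak ranks in the regions open in all 4 libraries did not separate the genotypes. Of 25907 regions tested with limma on the normal score of the rank, 0 (0%) had an adjusted p under 0.05 (Benjamini-Hochberg), and the smallest was 0.390. At an unadjusted p under 0.05 there were 976 regions with a higher and 821 with a lower rank in KO cells, 6.94% in all. The median standard error of a difference was 0.47 normal-score units, so only large differences could be called with 2 libraries per group. Without WT replicate 1 the test called 10 regions higher and 0 lower, without WT replicate 2 it called 7 higher and 2 lower, and without KO replicate 1 it called 1 higher. The Pearson correlation of normal scores across regions was 0.75 between KO libraries, 0.73 between WT libraries and 0.68 to 0.74 between genotypes.

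Some of the regions with small p values, picked at named genes and not the first in order, are given as a description. The smallest p was at an intergenic region, chr2:80247959-80248736. It stood at percentiles 81.4 and 93.7 in KO cells and 2.18 and 27.2 in WT cells. The promoter of E2f7, a cell cycle repressor, stood at percentiles 98.1 and 97.1 in KO cells and 73.4 and 75.6 in WT cells. The promoter of the ribosomal protein gene Rpl27 stood at percentiles 99.3 and 99.1 in KO cells and 84.5 and 92.5 in WT cells. Both were higher in each KO library than in each WT library. The promoter of Ell2, a transcription elongation factor, stood at percentiles 89.4 and 88.2 in KO cells and 99.1 and 98.9 in WT cells. A region in Hexim2, an inhibitor of the elongation kinase P-TEFb, stood at percentiles 76.9 and 86.0 in KO cells and 99.5 and 98.2 in WT cells. A region in Jak1, the kinase of many cytokine receptors, stood at percentiles 6.13 and 1.02 in KO cells and 51.8 and 75.9 in WT cells. Their adjusted p values lay between 0.390 and 0.429 (limma).

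When ranks were averaged per gene, over 5949 genes with at least 3 regions in all 4 lists, 1 gene (0.0168%) had an adjusted p under 0.05. This was Kcnk10, a potassium channel gene with 3 such regions, at a mean normal score of 0.92 and 0.91 in KO cells and -0.77 and -0.14 in WT cells. The difference was 1.37 ± 0.25 (KO minus WT, SE), with an adjusted p of 0.0259 (limma). Kcnk10 also had 10 and 10 open regions in KO cells, against 7 and 4 in WT cells, with 2 gained, and 2 with equal lists. The call was lost without the mean-variance trend (adjusted p 0.0968) and without KO replicate 1 (0.468), KO replicate 2 (0.240) or WT replicate 1 (0.253). The test per gene was added after the data were seen.

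Libraries that were not used to call the regions were read at the same places. The Th2 KO libraries are Th2 cells by their source name, but their titles name Th1 cells, as technical replicates of the Th1 KO samples, so their cell type rests on 1 of 2 labels that disagree. As given above, they lacked the Ifng promoter peak that all 4 Th1 libraries had. Of the 3061 regions gained in Th1 KO cells, 62.8% and 57.2% had a peak in Th2 KO cells, against 57.0% and 54.9% in Th2 WT cells. This difference of 4.00 percentage points had an exact permutation p of 0.333, the smallest possible. With all 12 lists cut to equal length, those of Th2 cells included, it was 0.729 points. With only the Th1 lists cut, the shares were 73.8% and 69.0% in Th2 KO cells, against 69.6% and 67.8% in Th2 WT cells. Of the 1223 lost regions, 51.4% and 48.2% had a peak in Th2 KO cells, against 53.6% and 52.6% in Th2 WT cells. This difference of -3.27 points had an exact permutation p of 0.333 and was -3.35 with all 12 lists cut. With only the Th1 lists cut, the shares were 66.1% and 61.9% in Th2 KO cells, against 68.1% and 65.5% in Th2 WT cells. Both differences had the sign of the Th1 calls. Of all regions, 70.8% and 67.8% had a peak in Th2 KO cells, against 69.0% and 68.0% in Th2 WT cells, so both classes lay below these shares. Of the gained regions 83 (2.71%) were gained in Th2 cells too and 47 (1.54%) were lost there. Of the lost regions 56 (4.58%) were lost in Th2 cells too and 31 (2.53%) were gained there. Over all regions 1.75% were gained and 1.53% lost in Th2 cells. No peak in any of the 8 Th2 and naive libraries was found for 514 gained (16.8%) and 160 lost regions (13.1%), against 7447 (12.02%) of all regions and 1.21% of those open in all 4 Th1 libraries.

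Naive cells set the 2 classes apart more than Th2 cells did. Of the gained regions, 19.8% and 22.2% were open in naive KO cells, against 22.9% and 24.1% in naive WT cells. Of the lost regions, 36.7% and 40.1% were open in naive KO cells, against 48.5% and 50.9% in naive WT cells. Lost regions were thus open in naive cells more often than gained regions, in each of the 4 naive libraries and in both genotypes. Of all regions, 42.3% and 44.2% were open in naive KO cells, against 47.4% and 48.7% in naive WT cells. The lost class lay below these shares in naive KO cells and slightly above them in naive WT cells. The gained class lay below them in each library. The Th1 lists were then cut to equal length, while the naive lists were left whole and thus unequal. The lost class stood at 43.5% and 46.3% in naive KO cells and 53.0% and 54.2% in naive WT cells. The gained class stood at 22.4% and 24.3% in naive KO cells and 25.0% and 25.9% in naive WT cells. The naive libraries are technical replicates, and the naive KO lists were shorter, with 41075 and 43823 peaks, against 52571 and 56195 in naive WT cells. Regions open in 1 Th1 library alone were looked at after this was seen. Of these, 19.1% and 23.0% in KO cells were open in both naive WT libraries, against 33.2% and 35.5% in WT cells. Of all regions of each library, 49.6% and 51.6% were in KO cells, against 54.4% and 59.8% in WT cells. With equal lists the shares of the first kind were 23.6% and 26.5% in KO cells, against 37.9% and 40.3% in WT cells. Those of all regions were 54.6% and 55.6% in KO cells, against 58.3% and 59.7% in WT cells. The whole libraries thus differed in the same direction.

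**Figure D5:**
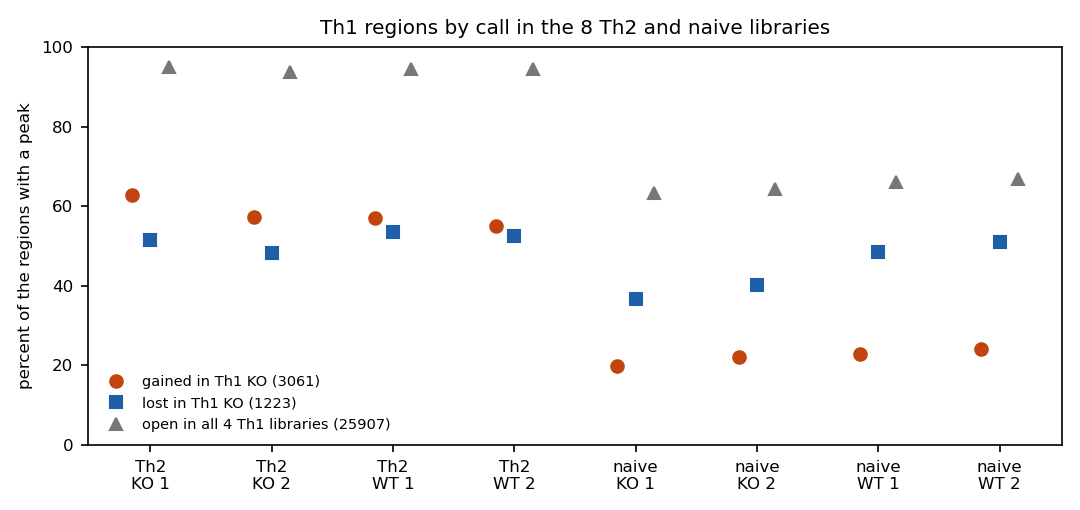
Percentage of the regions gained in Th1 KO cells (red circles), lost in them (blue squares) and open in all 4 Th1 libraries (grey triangles) that had a peak in each of the 8 other libraries. In the 4 naive libraries lost regions lie at 36.7% to 50.9% and gained ones at 19.8% to 24.1%, and in the 4 Th2 libraries lost regions lie at 48.2% to 53.6% and gained ones at 54.9% to 62.8%.

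Regions chosen without the Th1 libraries gave a partly different view. Of 19704 regions open in both naive WT and neither Th2 WT library, 6.83% and 6.65% had a peak in Th1 KO cells, against 8.44% and 5.39% in Th1 WT cells. The groups overlapped, with a difference of -0.18 points and an exact permutation p of 1. With all 12 lists cut to equal length the set itself changed, to 13613 regions. The shares were then 9.50% and 10.6% in KO cells, against 13.0% and 14.6% in WT cells, a difference of -3.76 points (exact permutation p 0.333). Of 18471 regions open in both Th2 WT and neither naive WT library, 66.5% and 63.1% had a peak in Th1 KO cells, against 62.1% and 46.4% in Th1 WT cells. The difference was 10.5 points (exact permutation p 0.333). With all 12 lists cut it was 4.22 points, over a changed set of 13156 regions (exact permutation p 0.667). Without WT replicate 2 it was 2.68 points. With all 12 lists matched and the set chosen anew, then, naive-only regions were rarer in both KO libraries than in both WT libraries. The p of this design cannot go below 0.333.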

How the data were processed

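Libraries were made from 50000 cells and sequenced as 38 bp paired reads, per the labels' protocols. BWA, Picard, MACS2 and GRCm38 are named per the submitters' processing notes, with no version or setting given. Each deposited file is a list of peaks of 1 library in the 9-column layout of MACS2 broad peaks. Column 5 is a score, which equals 10 times the −log10 q-value rounded down for nearly all peaks as deposited. Column 7 holds the fold enrichment, and columns 8 and 9 hold −log10 p-values and q-values, all computed by the authors' peak caller. Each is the authors' value for a peak within its own list, and ranks were compared only within a list. Reads per library are not given, so depth is unknown and no interval for it was computed.

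Peaks of the 4 Th1 lists that overlapped by at least 1 bp were merged on chromosomes 1 to 19 and X. A gene's regions overlap its body (RefSeq, GRCm38.p6) or 20 kb on either side. Column 9 was ranked within each library among the regions in all 4 lists, turned into normal scores and tested with limma (moderated test with a mean-variance trend, Benjamini-Hochberg adjustment over all regions). It was checked on simulated data. Shares were compared by exact two-sided permutation tests over libraries. For the equal-list values of these tests all 12 lists were cut, so the regions were chosen anew. Alternatives were lists cut to the 34746 highest peaks, q-values of at most 0.01, presence by covered length, merging over 12 lists, ranks of column 7 or of summed peaks, no trend, other flanks of genes, a replicate block and leaving out each library. The means per gene and the readouts of equal lists in other libraries were added after the data were seen. The Th1 titles give 2 biological replicates per genotype and only a replicate number, and the correlation of same-numbered deviations across regions was 0.0266, so the numbers were not used as pairs. The Th2 KO libraries were assigned by their source name, against their titles, which name Th1 cells.

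The genes named are drawn from the core Th1 genes, Ets1 and its neighbours, and up to 4 genes of each of 22 lists with the most called regions. They are also drawn from the 10 genes with the most lost and with the most gained regions, and from the regions with the smallest p in either direction. Genes behind a count of 5 or fewer, cell type markers and the Tnf and Gcnt1 promoters were named after their values were seen. One region result of the homing genes is not reported here. The members and lists were chosen with earlier results of these data known. The fits used limma 3.58.1 in R 4.3.3, and the rest pandas 2.3.3, scipy 1.17.1, numpy 2.4.6 and matplotlib 3.10.9 in Python 3.11.15.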

Additional observations from a re-analysis of the deposited data

Results flagged for a closer look

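The length of the peak lists differed between genotypes in opposite directions in 2 cell types. In Th1 cells the KO lists were longer by 5704.5 peaks on average, with 46006 and 44372 peaks in KO cells, against 44223 and 34746 in WT cells, so that most of the difference rests on WT replicate 2. The groups did not overlap, and in naive cells the KO difference was -11934.0 peaks. The difference between the cell types was not tested.

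Some named genes had open-region counts that differed between KO and WT in opposite directions in Th1 cells and another cell type, without overlap of the libraries. These are differences in mean number of open regions, KO minus WT, and none was tested. Only regions merged from the 4 Th1 lists were counted, so peaks that naive or Th2 cells had elsewhere at these genes are left out. Against naive cells, Foxp1 stood at 9 in Th1 and -2.5 in naive cells, Celf2 at 7.5 and -1, Pcca at 6 and -3, and Vav3 at 6 and -2.5. Atp9b stood at 5.5 and -3, Dok6 at 5.5 and -1.5, Nipbl, which encodes a cohesin loader, at 5 and -1, and Rora at 3.5 and -5. Cd40lg, the CD40 ligand gene, stood at 2.5 and -1.5, Elf2 at 2 and -1.5, and Btg1 at 2 and -1.5. Against Th2 cells, the costimulatory receptor gene Icos stood at -2 in Th1 and 2 in Th2 cells, and Pcca at 6 and -3.5. In all 11 of 131 named genes (8.40%) did so against naive cells and 2 (1.53%) against Th2 cells, beside 264 (1.56%) and 101 (0.597%) of 16914 genes. Since many of the named genes were chosen for their gained or lost regions in Th1 cells, the first shares are set in part by that choice and are no sign of an excess. The higher count in Th1 KO and lower count in naive KO cells at these genes goes the way of the list lengths, whose part was not tested.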

How the results depend on the processing

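The main comparisons were recomputed with equal lists, a stricter q-value, another overlap, a merge over 12 lists or another form of the rank test, such as a replicate block. Of 32 values, 29 stayed within 1.5 times the value with all peaks (counts) or moved by less than 1 SD between libraries (differences in share). The 29 include every count of the rank test, which called 0 regions with all peaks and 0 in each of these settings. Counts of 0 are no sign of stability, since only large differences could be called. The difference for Th2-only regions is also among the 29, at 4.22 points with all 12 lists cut in place of 10.5, because its libraries spread widely. With equal lists, 1715 regions were gained in place of 3061. With all 12 lists cut and the regions chosen anew, the share of naive-only regions open in Th1 cells differed by -3.76 points (KO minus WT) in place of -0.18. The share of Th1-gained regions open in Th2 cells then differed by 0.729 points in place of 4.00. With the replicate block the rank test called 0 regions, with a smallest adjusted p of 0.264, and Kcnk10 kept its call among gene means (adjusted p 5.88e-05).

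Leaving out each library in turn gave 4090 to 9730 gained and 2463 to 6115 lost regions, 0 to 10 regions called higher and 0 to 2 called lower in rank, and 6 to 13 WT peaks in the stretch beyond Ets1. WT replicate 2 had the shortest list, and without it 4090 regions were gained and 6115 lost. The share of naive-only regions then ranged from -1.70 to 1.35 points, and was positive without WT replicate 1. The share of Th2-only regions ranged from 2.68 to 18.4 points, lowest without WT replicate 2, the share of lost regions open in Th2 cells from -4.91 to -0.433, and that of gained regions from 1.23 to 6.78. Counts with 1 library left in a group have fewer conditions to meet and are larger for that reason.

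Read depth is not known for any library, so an absent peak cannot be told apart from a peak under the caller's threshold. With 2 libraries per group the exact tests cannot reach 0.05.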
